A study of Homo sapiens with 60 samples.

Results

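The 9 enzymes described here carry carbon from acetyl-CoA to the prenyl diphosphates and squalene. They are ACAT2, HMGCS1, MVK, PMVK, MVD, IDI1, FDPS, FDFT1 and GGPS1, and they were taken as named members of the pathway by matching the Ensembl identifiers of the count table to gene symbols. All 9 were found among the 60675 genes of the table, each under 1 identifier, and all 9 were among the 17129 genes that passed the filter on low counts. The cells were A549, an established human lung carcinoma line, harvested for RNA sequencing 24 h after treatment. The 60 libraries form 20 groups of 3.

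The vehicle group received DMSO, given as 0.1% in the sample labels and as 2% in the series' design text. The positive control was wortmannin at 10 µM, a fungal inhibitor of phosphoinositide kinases. The other 18 groups received water extracts of 6 crude drugs. Zingiberis Rhizoma Recens (ZRR, from ginger), Zingiberis Rhizoma (ZR, also from ginger), tuber of Pinellia (Pinelliae Tuber, PT) and jujube fruit (Zizyphi Fructus, ZF) were used at 500, 100 and 20 µg/mL, called high, medium and low. For Scutellariae Radix (SR, skullcap root) these doses were 230, 46 and 9.2 µg/mL, and for Coptidis Rhizoma (CR, the rhizome of Coptis) 130, 26 and 5.2 µg/mL, because the study capped the high dose at the concentration that inhibits by 20% where this fell under 500 µg/mL. Doses of SR and CR are therefore not matched to those of the other extracts or to each other. A549 is 1 cell line, and the labels do not say whether the 3 replicates of a group were separate cultures. The p-values therefore reflect the spread between samples alone, part or all of which may be technical.

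The mevalonate pathway supplies the carbon skeleton of cholesterol and of the isoprenoids that anchor proteins to membranes, extend dolichol and complete ubiquinone. ACAT2 joins acetyl-CoA units to acetoacetyl-CoA, HMGCS1 adds a further unit to give HMG-CoA, and after reduction to mevalonate the kinases MVK and PMVK and the decarboxylase MVD make isopentenyl diphosphate. IDI1 interconverts the isopentenyl and dimethylallyl forms, FDPS builds farnesyl diphosphate, and at the branch point FDFT1 commits it to squalene and sterols whereas GGPS1 lengthens it to geranylgeranyl diphosphate. Many genes of the sterol route are transcribed under SREBP transcription factors, which are released from the endoplasmic reticulum when its membranes are short of sterol and which act together with factors that bind CCAAT and GC boxes.

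Promoter sequence is shown for HMGCS1, MVD and IDI1, whose levels varied widely over the groups, and for GGPS1, whose levels varied little. These genes were picked with their levels known, and MVK, which varied most, and FDPS are not shown. Whether promoter letters bear on the levels was not tested. Each run is taken from the 250 bases before a RefSeq transcript start on GRCh38.p14, 5′ to 3′ on the gene's own strand, for the start nearest to the gene's annotated first base, and is the longest stretch outside every UTR of GENCODE 29. Capitals mark CCAAT boxes on either strand, so that a box on the opposite strand reads ATTGG. The runs lie at chr5:43313513-43313662 (minus strand), chr16:88663149-88663341 (minus strand), chr10:1049171-1049369 (minus strand) and chr1:235326969-235327159 (plus strand).
HMGCS1: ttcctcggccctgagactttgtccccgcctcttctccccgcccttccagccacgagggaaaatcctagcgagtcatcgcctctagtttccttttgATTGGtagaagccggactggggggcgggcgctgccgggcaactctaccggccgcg
MVD: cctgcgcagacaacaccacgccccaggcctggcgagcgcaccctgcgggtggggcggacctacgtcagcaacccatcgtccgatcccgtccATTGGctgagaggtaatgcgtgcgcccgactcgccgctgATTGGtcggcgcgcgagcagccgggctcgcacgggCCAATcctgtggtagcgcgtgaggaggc
IDI1: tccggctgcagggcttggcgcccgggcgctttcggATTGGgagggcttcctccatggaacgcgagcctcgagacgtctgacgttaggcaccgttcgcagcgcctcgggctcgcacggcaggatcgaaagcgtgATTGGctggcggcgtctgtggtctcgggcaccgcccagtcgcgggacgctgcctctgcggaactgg
GGPS1: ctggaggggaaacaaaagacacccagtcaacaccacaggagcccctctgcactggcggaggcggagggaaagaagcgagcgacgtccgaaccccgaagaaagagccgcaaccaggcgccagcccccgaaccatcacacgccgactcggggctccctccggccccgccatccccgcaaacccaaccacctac
Of the boxes in the full windows, these runs show 1 of 2 for HMGCS1, all 3 for MVD and both of IDI1, and GGPS1 has 0. Promoter windows were matched by symbol for 7 of the 9 members, and motifs were counted over windows of 300 bases, from 250 before the start to 50 after it. CCAAT boxes numbered 5 for MVK, 3 for MVD, 3 for FDPS, 2 for HMGCS1 and 2 for IDI1, and 0 for PMVK and GGPS1. The start used lay 539 nt from the gene's annotated first base for MVK and 272 nt for PMVK. The windows of MVK and PMVK thus lie wholly inside the annotated genes. For the others this distance was 51 to 134 nt. Over all 35116 windows of this length in the RefSeq table, 34.6% held at least 1 box, 10.8% at least 2 and 3.26% at least 3. The GC box GGGCGG was matched in 6 of the 7 windows, all but that of GGPS1, and in 45% of all windows. The sterol element core TCACNCCAC, also searched on both strands, had 0 matches in the 7 windows and was found in 1.13% of all windows. No match of one of these motifs implies a match of another. Further annotated starts have windows of their own. Both further windows of GGPS1 hold 2 GC boxes each and 1 of them holds 1 CCAAT box, the further window of HMGCS1 holds 2 GC boxes and 0 CCAAT boxes, and of the 2 further windows of IDI1 one holds 3 boxes of each kind and the other 4 GC boxes and 0 CCAAT boxes. A match, or none, describes only the letters of a window.

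The libraries held 1.74204e+07 to 3.64796e+07 estimated counts, and the members had 276 to 7394 of them per library. Within a group the coefficient of variation of a member's level had a median of 4.81%. Levels are TMM-scaled CPM (counts scaled to a common library size), differences are log2 fold changes ± standard error, and adjusted p-values are from edgeR (quasi-likelihood F-test, Benjamini-Hochberg over all 17129 tested genes). A gene was called when its adjusted p was under 0.05. Shares of all tested genes were taken for these calls alone. Counts of members at an unadjusted p, or with libraries that did not overlap, have no such share and are descriptions only. All 8 epithelial and A549 markers were expressed, while 0 of 3 endothelial, 0 of 4 fibroblast and 1 of 5 blood markers (CD14, mean 1.80 CPM) averaged above 1 CPM. The first number of the sample code was A1 for vehicle, 1 for wortmannin, 2 for both gingers, 3 for PT and SR, and 4 for CR and ZF. What it marks is not stated, so it cannot be told apart from treatment when an extract is compared with vehicle, whereas the doses of an extract share 1 number.

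In vehicle the enzymes were expressed at unequal levels. Per kilobase of the longest annotated transcript, HMGCS1 stood highest at 56.2 ± 0.426 CPM per kb (SD, n = 3), followed by FDPS at 46.8 ± 2.59 and FDFT1 at 42.8 ± 1.73, and the libraries of these 3 did not overlap. IDI1 came next at 21.1 ± 1.09 and PMVK at 19.7 ± 0.943, whose libraries overlapped. ACAT2 at 10.4 ± 0.860 and GGPS1 at 10.2 ± 0.0964 overlapped too. MVD stood at 8.87 ± 0.398, and MVK, which phosphorylates mevalonate, was lowest on this scale at 5.23 ± 0.122. This order depends in part on the length used, and which transcripts the cells express was not tested. In mean CPM, not divided by length, MVD (20.9) was below MVK (21.5) in vehicle, with overlapping libraries. PMVK (25.2 CPM) was below ACAT2 (33.0) and GGPS1 (29.4), and FDPS (94.4) was below FDFT1 (114).

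Over the 20 groups, 8 of the 9 enzymes differed by the edgeR test for any difference (52.0% of all tested genes were called by it), and PMVK did not (adjusted p = 0.272). The range between the highest and lowest group mean had a median of 1.09 on the log2 scale over the 9 enzymes, beside 0.53 over all tested genes. It was 1.82 for MVK, 1.77 for MVD, 1.59 for IDI1 and 1.41 for HMGCS1, and only 0.47 for PMVK and 0.29 for GGPS1. SR high held the highest mean of 7 members and CR high the lowest of 8, and wortmannin came second for 6. Of 171 tests of a member against vehicle 37 were called, 21 higher and 16 lower, and 32 of the 37 belonged to wortmannin, SR or CR. These tests share the 3 vehicle libraries. Of all tested genes, 25.3% were called for wortmannin, 23.9% for SR high and 35.1%, 23.2% and 17.7% for CR high, medium and low. Every other comparison with vehicle called 5.35% or less, so this concentration is not read as particular to the enzymes.

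**Figure D1:**
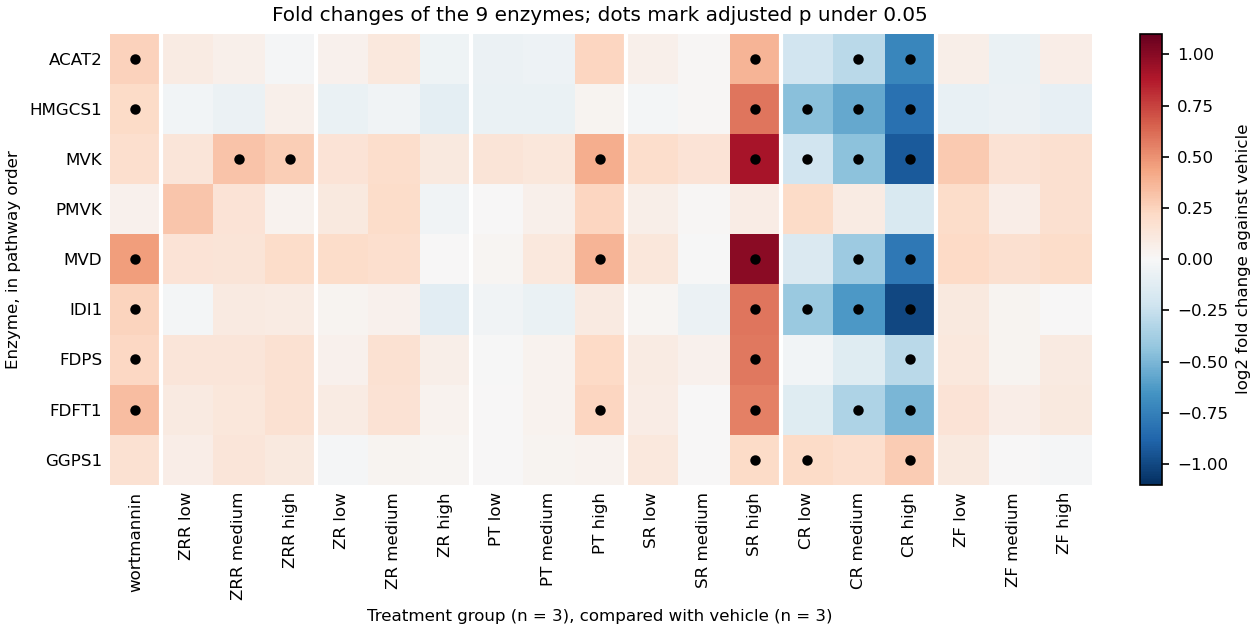
Log2 fold change of each enzyme (rows, in pathway order) in each of 19 treatment groups (columns, n = 3) against vehicle (n = 3), with red for higher, blue for lower and a dot for adjusted p under 0.05. The 8 dots of SR high lie on red cells and those of the 3 CR doses lie on blue cells, except for GGPS1.

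Skullcap root extract at 230 µg/mL raised 8 of the 9 enzymes above vehicle, and 23.9% of all tested genes were called in this comparison (13.0% higher). The median difference of the 9 members was 0.58, against 0.01 for all tested genes. MVD and MVK, which handle mevalonate and its diphosphate, rose most.

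MVD measured 41.5, 39.2 and 43.8 CPM with SR high and 21.9, 20.4 and 20.2 in vehicle, so every treated library lay far above every control library. This was a log2 fold change of 0.99 ± 0.10 (adjusted p = 3.78e-11). MVK measured 40.4, 38.4 and 41.9 CPM against 22.0, 21.5 and 21.0, again with no overlap, a rise of 0.90 ± 0.07 (adjusted p = 5.06e-15). HMGCS1, which makes HMG-CoA, measured 290.7, 302 and 296 CPM with SR high and 199, 197 and 196 in vehicle. Its rise was 0.59 ± 0.04 (adjusted p = 1.43e-15). The isomerase IDI1 reached 106, 102 and 112 CPM, above vehicle libraries of 69.9, 68.2 and 75.3, a rise of 0.59 ± 0.07 (adjusted p = 5.10e-09).

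The synthases downstream rose by similar amounts. FDPS stood at 141 ± 3.93 CPM against 94.4 ± 5.21 (SD, n = 3), a log2 fold change of 0.58 ± 0.07. FDFT1, which opens the sterol branch, stood at 167 ± 8.36 against 114 ± 4.60 CPM, a fold change of 0.55 ± 0.06. The thiolase ACAT2 at the pathway's entry rose less, from 33.0 ± 2.73 to 42.8 ± 1.27 CPM (0.37 ± 0.09, adjusted p = 0.00110). GGPS1 was called at 0.21 ± 0.07 (adjusted p = 0.0335), and that call was lost without either of 2 SR high libraries, without any of the vehicle libraries and without the filter on low counts (highest adjusted p = 0.153). PMVK was not called, with 28.9, 24.8 and 26.2 CPM overlapping the 23.8, 26.2 and 25.6 CPM of vehicle.

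At lower doses of SR no member was called. At 46 and at 9.2 µg/mL edgeR called 0 members against vehicle (0.00% and 0.00584% of all tested genes), DESeq2 also called 0, and at each dose 1 member, MVK, had an unadjusted p under 0.05. MVK stood at 23.4, 24.0 and 24.5 CPM at the medium dose and at 25.9, 24.9 and 23.3 at the low dose, above all vehicle libraries in both. High against low, which lies within 1 sample code, called 7 members higher (20.4% of all tested genes, 11.1% higher). These 7 were the members other than PMVK (0.02 ± 0.14) and GGPS1 (0.09 ± 0.07), and MVD again differed most at 0.87 ± 0.10 (adjusted p = 1.39e-09). Against PT high, which carries the same sample code at a different dose, SR high was higher for 6 members (21.5% of all tested genes called), with ACAT2, PMVK and GGPS1 not called. At the medium and low doses the same comparison called 0 members with edgeR (0.0292% and 0.00584% of all tested genes; DESeq2 was not run on it).

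Coptis rhizome extract lowered 7 of the 9 enzymes at 130 µg/mL and raised GGPS1, in a comparison that called 35.1% of all tested genes (16.7% lower, 18.5% higher). The median difference of the members was -0.72, against 0.01 for all tested genes. IDI1 and MVK fell most. In RNA from whole cultures, a change in the cells present and a change in RNA per cell cannot be told apart.

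IDI1 measured 34.99, 35.1 and 36.6 CPM with CR high, far below the vehicle libraries at 69.9, 68.2 and 75.3, and the log2 fold change was -1.0002 ± 0.07 (adjusted p = 6.46e-16). MVK measured 12.003, 10.6 and 11.5 CPM against 22.0, 21.5 and 21.0, with no overlap, a change of -0.92 ± 0.07 (adjusted p = 1.18e-14). HMGCS1 measured 107, 116 and 112 CPM against 199, 197 and 196, a change of -0.82 ± 0.04 (adjusted p = 5.64e-21). All 3 CR libraries of each gene thus lay below all 3 vehicle libraries.

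MVD, which removes carbon dioxide to give isopentenyl diphosphate, measured 12.04, 12.2 and 11.998 CPM and differed by -0.79 ± 0.11 (adjusted p = 3.84e-08). The entry enzyme ACAT2 measured 21.3, 18.99 and 19.8 CPM against 31.5, 31.4 and 36.2, a change of -0.72 ± 0.09 (adjusted p = 9.30e-09). The later steps fell by less. FDFT1 stood at 80.2 ± 4.50 CPM against 114 ± 4.60 (-0.51 ± 0.06), and FDPS at 76.7 ± 1.92 against 94.4 ± 5.21 (-0.30 ± 0.08, adjusted p = 0.00135). PMVK, the kinase between MVK and MVD, measured 23.9, 20.6 and 23.0 CPM, which touched the vehicle range, and its change of -0.16 ± 0.14 was not called (adjusted p = 0.373). It was called with only the libraries of the 2 groups in the fit (-0.17, adjusted p = 0.0432) and with a covariate for how steeply levels climb with transcript length in each library, the length slope described further on (-0.27, adjusted p = 6.45e-05).

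GGPS1 moved against the others. It measured 34.96, 34.8 and 37.3 CPM with CR high and 29.2, 29.7 and 29.2 in vehicle, with no overlap, a rise of 0.28 ± 0.07 (adjusted p = 0.00194). This call held in all 12 alternative fits, which gave 0.24 to 0.29. At the medium dose GGPS1 was at 0.18 ± 0.07 and not called (adjusted p = 0.0619). The enzyme shares its substrate with FDFT1, which was lower in the same libraries.

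**Figure D2:**
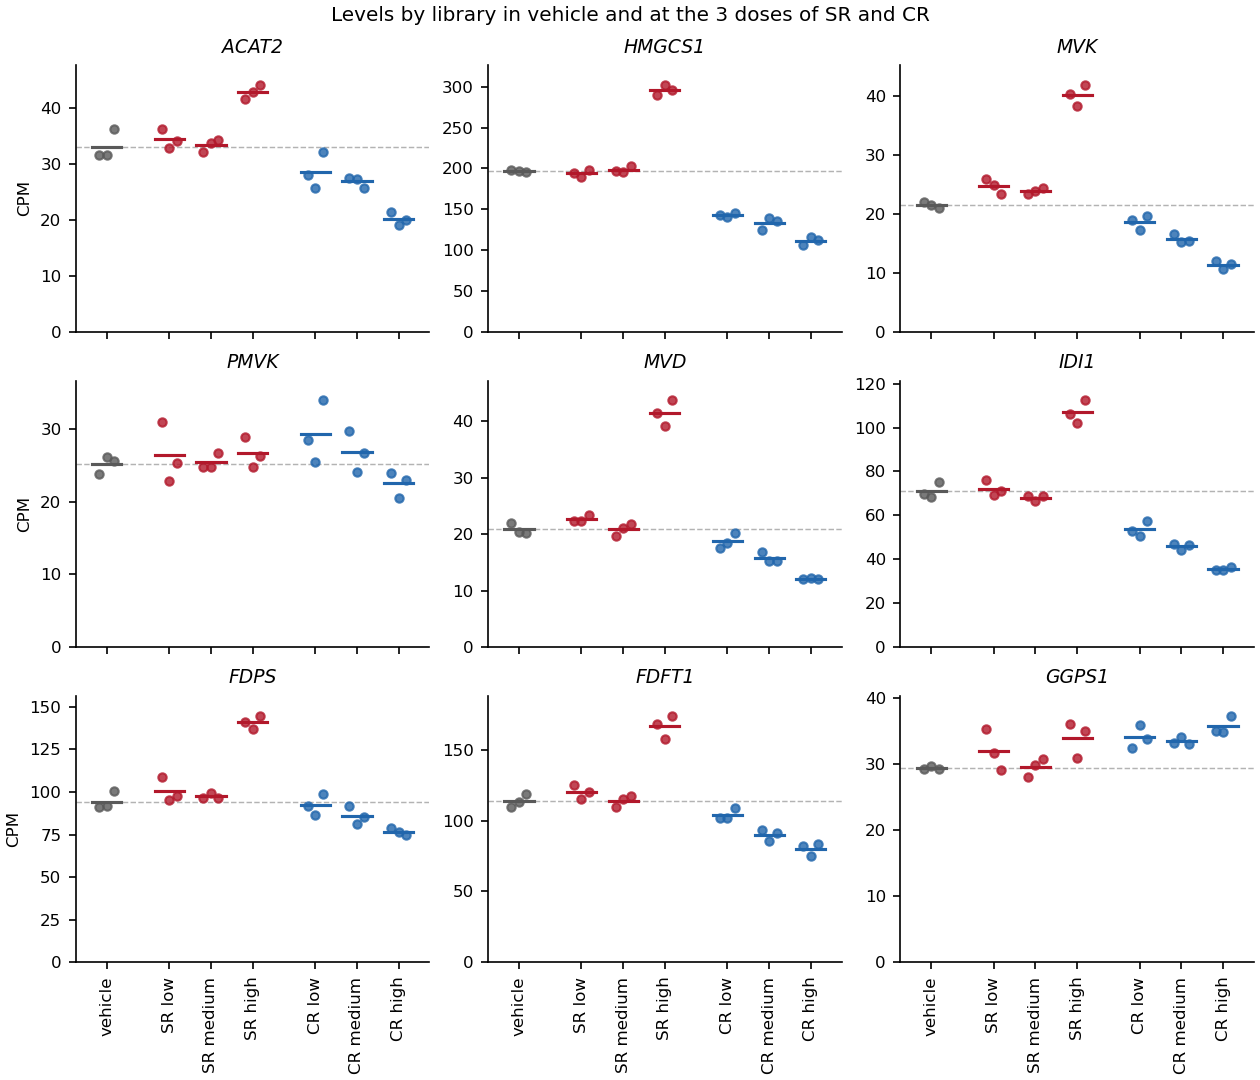
CPM (vertical axes, each from 0) of each enzyme in the 3 libraries of vehicle (grey) and of the low, medium and high doses of SR (red) and CR (blue), with bars at group means and a dashed line at the vehicle mean. Means of 7 enzymes step down from CR low to CR high and are highest at SR high, with PMVK also stepping down from CR low to CR high but its CR and SR libraries reaching into the vehicle range at each dose, while GGPS1 lies above vehicle at all 3 CR doses.

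The fall under CR was graded with dose. IDI1 averaged 71.1 CPM in vehicle, 53.7 at 5.2 µg/mL, 45.8 at 26 µg/mL and 35.6 at 130 µg/mL. MVK went from 21.5 through 18.7 and 15.7 to 11.4 CPM over the same groups, and HMGCS1 from 197 through 143 and 133 to 112. For IDI1, MVK, HMGCS1, MVD and FDFT1 the libraries of the 3 CR doses did not overlap from one dose to the next. The share of all tested genes that separated in this way was not counted. High against low called 8 members lower and 0 higher (25.4% of all tested genes, 12.3% lower), with MVK at -0.71 ± 0.07 and GGPS1 not called at 0.07 ± 0.07. PMVK was among the 8 at -0.38 ± 0.13 (adjusted p = 0.0329), but was no longer called with the length slope as a covariate (-0.13, adjusted p = 0.0863) or without either of 2 CR low or either of 2 CR high libraries (highest adjusted p = 0.245). FDPS, at -0.27 ± 0.08, lost its call without CR low replicate 3 (adjusted p = 0.0665).

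At the medium CR dose 6 enzymes were lower than vehicle and 0 higher (23.2% of all tested genes, 11.1% lower). These were IDI1 (-0.63 ± 0.07), HMGCS1 (-0.57 ± 0.04), MVK (-0.45 ± 0.07), MVD (-0.40 ± 0.10), FDFT1 (-0.34 ± 0.06) and ACAT2 (-0.30 ± 0.09). ACAT2 was lost without vehicle replicate 3 or CR medium replicate 3 (adjusted p = 0.1102 and 0.0607). At the low dose, the smallest given of any extract, 3 enzymes were lower and GGPS1 was higher (17.7% of all tested genes, 9.15% lower and 8.51% higher). HMGCS1 measured 143, 140 and 145 CPM there against 199, 197 and 196, a change of -0.46 ± 0.04 (adjusted p = 2.29e-11), and IDI1 changed by -0.41 ± 0.07 (adjusted p = 7.35e-05). Both calls held in all 12 alternative fits. The calls of MVK (-0.21 ± 0.07) and GGPS1 (0.21 ± 0.07) were lost in 7 and 8 of them. Both were lost without any 1 vehicle library and without CR low replicate 2, MVK also without CR low replicate 1 and GGPS1 without CR low replicate 3, with adjusted p up to 0.181 for MVK and, with the length slope, 0.327 for GGPS1.

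The mean length slope was 0.950 in CR low and 1.04 in vehicle, and with that slope as a covariate 8 members were called at the low doses in place of 4, all of them lower, 7 in CR and 1 in ZRR (IDI1, -0.19). Between CR medium and CR low edgeR called 0 members (3.10% of all tested genes), 5 had an unadjusted p under 0.05, all lower at the medium dose, and DESeq2 called 2. The same step called 0 members for the other 5 extracts with both tools (0.0175% of all tested genes for ZRR, 0.0292% for ZR, 0.0175% for PT, 0.00584% for SR and 0.00% for ZF), with 1 member for ZRR and 0 for the others at an unadjusted p under 0.05.

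The jujube groups carry the same sample code as CR, so CR was also set against ZF at the same dose rank, although their concentrations differ. CR high was lower than ZF high for 8 members and higher for GGPS1 (34.0% of all tested genes called). PMVK was the weakest of them, at -0.34 ± 0.13 (adjusted p = 0.0432 by edgeR), with ZF high libraries at 24.8, 35.7 and 25.0 CPM. Alternative fits were not run on this comparison. IDI1 was at -1.0008 ± 0.07 and MVK at -1.097 ± 0.07, close to or beyond the values against vehicle. CR medium was lower than ZF medium for 5 members (17.2% of all tested genes) and CR low than ZF low for 5 (5.11%), among them HMGCS1 at -0.50 ± 0.04 and -0.38 ± 0.04. The falls of HMGCS1, MVK, MVD, IDI1 and FDFT1 under CR were thus present within 1 sample code at each dose.

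The difference between high and low dose was itself compared between extracts, for all 15 pairs. SR and CR differed in the dose effect of 7 members (9.08% of all tested genes were called for this difference), by 1.4998 ± 0.15 for MVD, 1.42 ± 0.10 for MVK, 1.16 ± 0.10 for IDI1 and 0.97 ± 0.06 for HMGCS1. PMVK and GGPS1 were the members not called. The dose effect of ZF differed from that of SR for 6 members (9.73%) and from that of CR for 6 (11.4%). SR differed from ZRR for 7 (6.68%), from ZR for 7 (6.72%) and from PT for 4 (11.3%). CR differed from ZRR for 6 (6.99%), from ZR for 4 (4.18%) and from PT for 8 (19.5%). Among ZRR, ZR, PT and ZF, MVD alone differed, between ZR and PT (1.80%), and the other 5 pairs called 0 members (ZRR and ZR 0.140%, ZRR and PT 2.59%, ZRR and ZF 0.981%, ZR and ZF 1.24%, PT and ZF 0.140%) by edgeR, the single tool run on them. These differences compare doses set in different ways and so do not compare equal amounts of extract.

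Wortmannin raised 6 enzymes and lowered 0, where 25.3% of all tested genes were called (13.4% higher). The rises were smaller than those under SR, with a median of 0.23 over the 9 members, and all 9 values were above 0. MVD measured 28.5, 29.5 and 28.1 CPM against 21.9, 20.4 and 20.2 in vehicle, with no overlap, a log2 fold change of 0.46 ± 0.10 (adjusted p = 0.000411). FDFT1 measured 137, 150 and 145 CPM against 110, 113 and 119, a rise of 0.34 ± 0.06 (adjusted p = 4.53e-05). HMGCS1 measured 223, 234 and 226 CPM against 199, 197 and 196, a rise of 0.21 ± 0.04 (adjusted p = 0.000199). The calls of these 3 held in all 12 alternative fits.

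ACAT2 (0.25 ± 0.09), IDI1 (0.25 ± 0.07) and FDPS (0.23 ± 0.07) were also called, but each lost its call when single libraries were left out, with adjusted p up to 0.221 for ACAT2, 0.0692 for IDI1 and 0.112 for FDPS. Without vehicle replicate 2 the count fell from 6 to 3. MVK was at 0.18 ± 0.07 with adjusted p = 0.0507, just outside the threshold, although its 26.3, 24.2 and 22.8 CPM all lay above vehicle. GGPS1 was at 0.16 ± 0.07 (adjusted p = 0.0974), and PMVK at 0.05 ± 0.13.

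**Figure D3:**
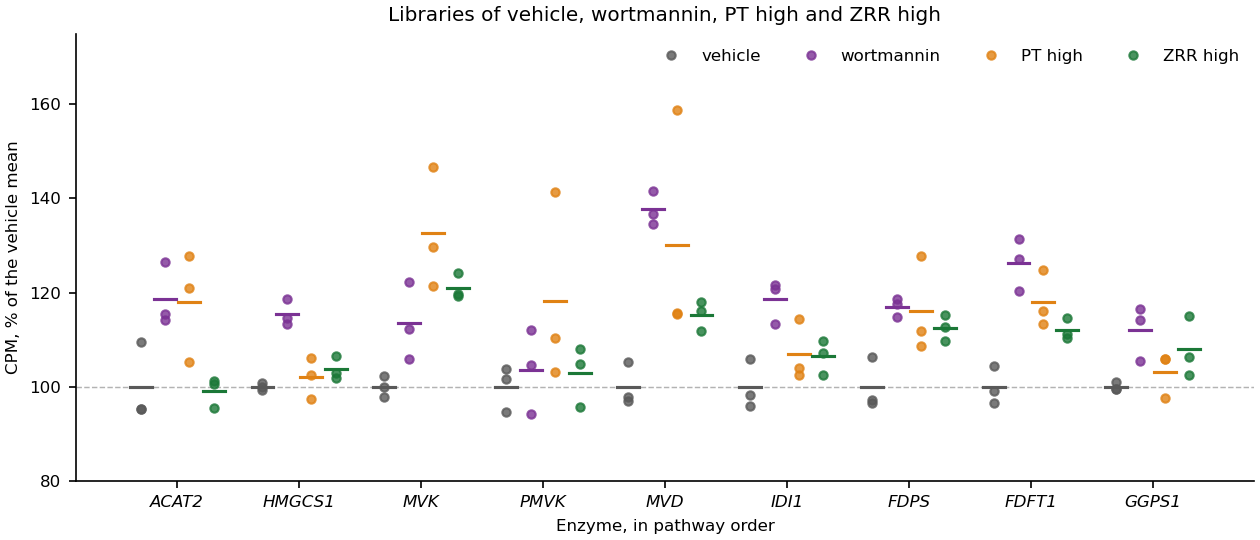
CPM of each library as a percentage of the vehicle mean of the same enzyme (vertical axis, from 80%), for vehicle, wortmannin, PT high and ZRR high, with bars at group means. All wortmannin libraries lie above all vehicle libraries for every enzyme but PMVK. MVK and GGPS1 are among these enzymes but were not called under wortmannin. The share of all tested genes that separated in this way was not counted, so the separation is a description only. For MVD and PMVK, 1 PT high library stands above the others of its group.

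Pinelliae Tuber at 500 µg/mL raised MVK, MVD and FDFT1 (3 of 9, where 1.40% of all tested genes were called and 1.07% were higher). MVK measured 27.9, 31.6 and 26.1 CPM against 22.0, 21.5 and 21.0, a rise of 0.40 ± 0.07 (adjusted p = 0.000262), with no overlap. MVD measured 24.1, 33.1 and 24.1 CPM, so that its rise of 0.37 ± 0.10 (adjusted p = 0.0475) drew on 1 library, and without it the value was 0.21 (adjusted p = 0.683). FDFT1 was at 0.24 ± 0.06 (adjusted p = 0.0386). That same library, PT high replicate 2, had a length slope of 0.913 where vehicle libraries had 1.01 to 1.07, and with the slope as a covariate MVK was at 0.30 (adjusted p = 0.000118), FDFT1 at 0.13 (adjusted p = 0.0242) and MVD at 0.19 (adjusted p = 0.102). With only the libraries of the 2 groups in the fit, 0 of the 3 calls remained, and without any 1 vehicle library or PT high replicate 2 the count was 1. PT high against PT low called 0 members with edgeR (0.549% of all tested genes), 2 with DESeq2 and 6 at an unadjusted p under 0.05, and 8 members had all high-dose libraries above all low-dose libraries. How many of all tested genes had such a p or such a separation was not counted, so neither count is read as particular to the members.

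Among the gingers, MVK was the single member called. It measured 26.7, 25.8 and 25.7 CPM with ZRR high (0.27 ± 0.07, adjusted p = 0.0130, where 4.03% of all tested genes were called and 2.25% were higher) and 26.0, 27.2 and 26.9 with ZRR medium (0.31 ± 0.07, adjusted p = 0.0351, where 0.280% were called and 0.146% were higher), above all vehicle libraries in both. The first call was lost in 4 of 12 alternative fits, those without the filter, without vehicle replicate 2 or 3 and without ZRR high replicate 1 (highest adjusted p = 0.0896). The second was lost in 7, those with the length slope and without any 1 of its 6 libraries (highest adjusted p = 0.175). ZRR low, all 3 doses of ZR and all 3 doses of ZF gave 0 member calls with edgeR and with DESeq2. At an unadjusted p under 0.05 they gave 1 member for ZRR low, 1, 3 and 1 for ZR high, medium and low, and 2, 1 and 3 for ZF high, medium and low. In the same comparisons 0.111% of all tested genes were called for ZRR low, 5.35%, 0.922% and 0.00584% for ZR, and 0.00584%, 0.0117% and 0.0117% for ZF. PT medium (0.0175% of all tested genes) and PT low (0.00%) also gave 0 member calls with both tools, with 0 and 1 members at an unadjusted p under 0.05. High against low doses called 0 members for ZRR (4.17% of all tested genes), ZR (4.64%) and ZF (0.00%) with edgeR and with DESeq2, with 1, 1 and 0 members at an unadjusted p under 0.05.

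Vehicle stood at rank 17 of 20 for MVK and for FDFT1, with only the 3 CR groups below it. Its rank was 18 for PMVK and GGPS1, 16 for MVD and FDPS, 12 for ACAT2 and IDI1, and 6 for HMGCS1. No other group shares the sample code of vehicle, so code and treatment cannot be told apart in the ranks above or below it. For MVK the adjacent groups overlapped in 15 of 19 steps of the order, and the steps without overlap were SR high above PT high, vehicle above CR low, CR low above CR medium, and CR medium above CR high. HMGCS1 had 5 such steps, SR high above wortmannin, wortmannin above ZRR high, ZR high above CR low, and the 2 steps between CR doses. IDI1 and FDFT1 had 4, MVD 3, FDPS 2 and ACAT2 1, all of them next to SR high or to a CR group. PMVK and GGPS1 had 0, so no neighbour in their order differed beyond its spread.

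The 4 extracts given at 500 µg/mL could be compared directly, in 6 pairs and 54 member tests. ZR high was lower than PT high for MVK (-0.30 ± 0.07, adjusted p = 0.00433) and MVD (-0.37 ± 0.10, adjusted p = 0.0226), where 4.12% of all tested genes were called and 2.21% were lower. MVK measured 21.1, 23.6 and 24.7 CPM with ZR high, all below the PT high libraries, but its call was lost without PT high replicate 2 (-0.23, adjusted p = 0.134), without ZR high replicate 1 (adjusted p = 0.106) or with only the 2 groups in the fit (adjusted p = 0.175). MVD measured 20.7, 20.5 and 21.5 CPM, and without PT high replicate 2 its difference was -0.21 (adjusted p = 0.486), and the call was also lost without any 1 ZR high library (lowest of these adjusted p = 0.0570). ZRR high was higher than ZF high for HMGCS1 (0.14 ± 0.04, adjusted p = 0.0469, where 4.09% were called and 2.35% were higher), and 8 of 12 alternative fits lost that call, with adjusted p up to 0.680. The other 4 pairs called 0 members with edgeR (ZRR and ZR 0.712% of all tested genes, ZRR and PT 4.30%, ZR and ZF 4.87%, PT and ZF 0.269%) and had 3, 1, 0 and 3 members at an unadjusted p under 0.05. DESeq2 called 1 in them, HMGCS1 between the gingers (adjusted p = 0.0162). The 2 gingers differed by 0.12 in the median of the 9 members, with ZRR high above ZR high in all 9.

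Across the 20 group means the enzymes fell into a block of 7 and a remainder of 2. Over the 21 pairs among ACAT2, HMGCS1, MVK, MVD, IDI1, FDPS and FDFT1, Pearson's r of mean log2 CPM ran from 0.90 to 0.99. PMVK correlated with the 7 at 0.23 to 0.51, and GGPS1 with the other 8 members at -0.37 to -0.06. The group means of PMVK also correlated at -0.75 with the length slope, so its place outside the block is not separated from that slope. These values describe 20 points that share libraries and scaling, and the SR and CR groups lie at their ends.

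The 3 genes whose group means were most like each member's were sought among 12406 genes with a mean log2 CPM of at least 1. Of these genes LSS, lanosterol synthase, which closes the sterol ring, was nearest to MVD (r = 0.98), FDFT1 (r = 0.98) and ACAT2 (r = 0.95). Each of them was closer still to another member, MVD and FDFT1 to each other (r = 0.986) and ACAT2 to FDFT1 (r = 0.954). For ACAT2, LSS was followed by CYB5B and ERG28, for FDFT1 by SQLE, the squalene epoxidase, and MMAB, and for MVD by MMAB and STARD4. The sterol carrier STARD4 was nearest to HMGCS1 (r = 0.98), ahead of LSS and SQLE. DHCR7, the last reductase of cholesterol synthesis, was nearest to MVK (r = 0.97), ahead of FADS2 and INSIG1. FADS2, a fatty acid desaturase, was nearest to IDI1 (r = 0.98), ahead of HSD17B7 and DHCR7, and MMAB to FDPS (r = 0.99), ahead of CYP51A1 and LSS. PMVK was nearest to FKBP3 (r = 0.93), MYL6 and C1orf35, and GGPS1 to SNHG32 and MALAT1 (both r = 0.89), which are noncoding RNAs, and ZP3. All of these are correlations over the same 20 group means.

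Within groups the picture was different, and HMGCS1 stood apart. The deviations of the 60 libraries from their group means correlated at 0.42 to 0.87 among the other 8 members, but at -0.63 to -0.34 between HMGCS1 and each of them. These deviations moved with the length slope, fitted in each library as the increase of log2 CPM with log2 of transcript length, which ran from 0.879 to 1.07. Their correlation with that slope was 0.67 for HMGCS1 and negative for the others, from -0.52 for GGPS1 to -0.92 for PMVK. PMVK has the shortest transcript of the 9 (1280 nt), but HMGCS1 (3506 nt) is not the longest, since MVK has 4109 nt and correlated at -0.78. Over group means the slope correlated with PMVK at -0.75 and with the other members between -0.06 and 0.26.

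**Figure D4:**
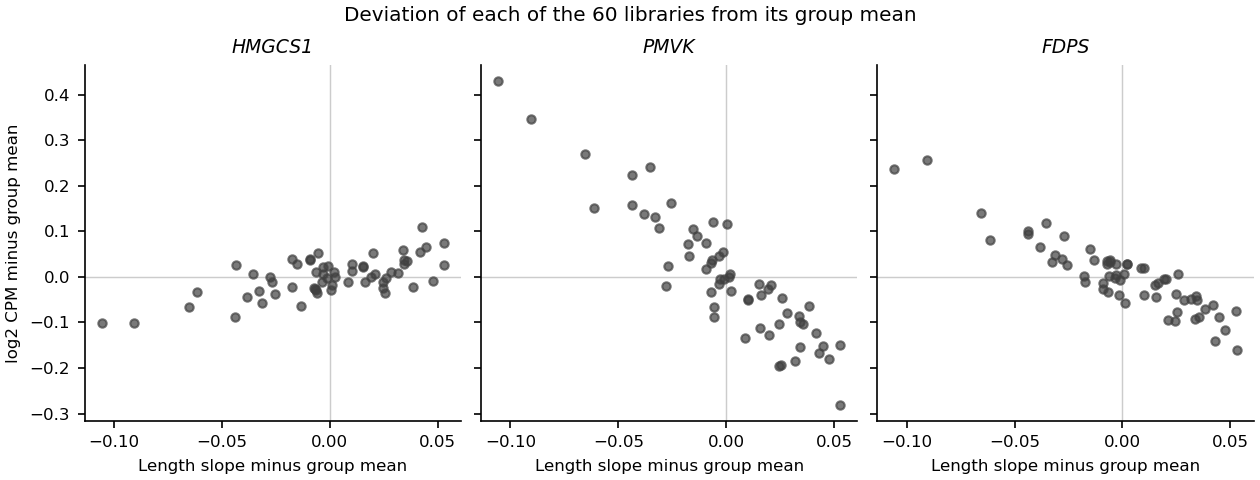
Deviation of log2 CPM from the group mean (vertical axis) against the deviation of the library's length slope from its group mean (horizontal axis) for HMGCS1, PMVK and FDPS, 1 point per library (60 libraries). Points of HMGCS1 rise from left to right and those of PMVK and FDPS fall.

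The 5 libraries with the highest PMVK levels, at 34.0 to 35.7 CPM, were the 5 with the lowest length slopes, at 0.879 to 0.913, and no other library exceeded 31.8 CPM. They were 1 replicate each of ZRR low, ZR low, PT high, CR low and ZF high. With the slope as a covariate, 4 of the 55 calls of a member over all the comparisons were lost, 37 were gained and 0 of the 55 changed sign. How many calls this covariate lost or gained over all tested genes was not counted. The rises of 7 members under SR high (ACAT2, HMGCS1, MVK, MVD, IDI1, FDPS and FDFT1) and the falls of the same 7 under CR high were called in all 12 alternative fits.

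Other genes of the pathway were counted from 4 lists. Of 11 sterol ring enzymes, which turn squalene into cholesterol, 10 were called higher and 0 lower under SR high, 1 higher and 10 lower under CR high, and 7 higher and 0 lower under wortmannin. Of all tested genes, 23.9%, 35.1% and 25.3% were called in these 3 comparisons. Their median log2 fold changes were 0.46, -0.50 and 0.20, against 0.01 over all tested genes in each. MSMO1, a C4 sterol oxidase, was at 0.89 ± 0.05 under SR high and at 0.57 ± 0.05 under wortmannin, and CYP51A1, the lanosterol demethylase, at 0.58 ± 0.04 under SR high. DHCR7, a reductase at the end of the route, was at -0.90 ± 0.05 under CR high. TM7SF2, a sterol reductase, was at 1.18 ± 0.10 under wortmannin, and it was the list's 1 gene higher under CR high, at 0.29 ± 0.11. The PT high and ZRR high comparisons each called 4 of the 11 higher and 0 lower, where 1.07% and 2.25% of all tested genes were called higher.

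Of 9 genes that sense sterols or respond to them through SREBP, 6 were higher and 0 lower under SR high, 0 higher and 7 lower under CR high, and 4 higher and 1 lower under wortmannin, beside the same 23.9%, 35.1% and 25.3% of all tested genes called. INSIG1, which retains the SREBP complex in the endoplasmic reticulum, was at 1.43 ± 0.05 under SR high and -1.31 ± 0.06 under CR high. STARD4 was at 1.06 ± 0.07 under SR high and 0.34 ± 0.07 under wortmannin. SREBF2, the SREBP gene tied to sterol synthesis, was at 0.32 ± 0.07 under wortmannin.

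Of 13 users of the prenyl products 1 was higher and 2 lower under SR high, 1 higher and 5 lower under CR high, and 0 higher and 5 lower under wortmannin. Of all tested genes 23.9%, 35.1% and 25.3% were called there, and these counts are not read as particular to the list. ICMT, the methyltransferase of prenylated proteins, was at -0.19 ± 0.04 under SR high and -0.42 ± 0.04 under CR high, and the farnesyltransferase subunit FNTB at -0.41 ± 0.05 under CR high. DHDDS, of dolichol synthesis, was at 0.27 ± 0.07 under SR high. RABGGTB and COQ2 were at -0.35 ± 0.05 and -0.42 ± 0.09 under wortmannin. Of 6 related enzymes outside the chain 4 were tested, with 2 higher and 0 lower under SR high, 1 higher and 1 lower under CR high, and 2 higher and 0 lower under wortmannin. AACS, which activates acetoacetate, was at 0.39 ± 0.05 under SR high and 0.30 ± 0.05 under wortmannin. ACLY, the source of cytosolic acetyl-CoA, was at -0.35 ± 0.06 under CR high.

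Several members lie beside or across other genes, and the strand setting of the authors' counting is not given in these sources, so reads of overlapping antisense genes cannot be told apart. On GRCh38 with GENCODE 29, ACAT2 (chr6:159760328-159779055, plus strand) overlaps exons of TCP1, a chaperonin subunit at 341 CPM in vehicle. TCP1 moved the other way from ACAT2 under SR high (-0.40 ± 0.06) and wortmannin (-0.27 ± 0.06), and the same way under CR high (-0.35 ± 0.06). MVK (chr12:109573255-109598117, plus strand) and MMAB, a cobalamin adenosyltransferase on the opposite strand, start 619 nt apart and overlap. MMAB was at 0.73 ± 0.10 under SR high and -0.44 ± 0.11 under CR high, in the direction of MVK both times. MVD (chr16:88651935-88663161, minus strand) and SNAI3-AS1 start 137 nt apart, and SNAI3-AS1 was at 0.74 ± 0.16 under wortmannin and 0.66 ± 0.16 under SR high, but at 0.19 ± 0.17 and not called under CR high.

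GGPS1 (chr1:235327350-235344532, plus strand) overlaps ARID4B on the opposite strand, which fell by 0.25 on the log2 scale under CR high (adjusted p = 0.000795) while GGPS1 rose. TBCE overlaps exons of GGPS1 on the same strand and was not analysed here. RUSC1-AS1, which overlaps FDPS (chr1:155308748-155320666, plus strand), stood at 6.37 CPM in vehicle and was at 0.90 ± 0.10 under SR high and -0.26 ± 0.10 under CR high. Antisense genes over exons of HMGCS1 (chr5:43289395-43313512, minus strand), IDI1 (chr10:1039152-1049170, minus strand) and FDFT1 stayed at or below 1.56 CPM in every library. PMVK (chr1:154924734-154936991, minus strand) has no exon overlap with another annotated gene. Of 3 pseudogenes named after IDI1 and 8 named after FDPS, none exceeded 0.767 CPM in a library.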

How the data were processed

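RNA of A549 cells was sequenced from directional mRNA libraries as paired 100-base reads, per the labels' protocols. The deposited values are estimated counts per Ensembl gene, and FastQC 0.11.9, Trim Galore 0.6.5, STAR 2.7.3a, RSEM 1.3.3 and GRCh38 (hg38) are named in the submitters' processing notes. The annotation release and strand setting are not given in these sources. Of 269 sample columns, 209 match no sample listed for these groups and were not used.

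Counts were rounded (9.06% were not whole), filtered with filterByExpr and fitted over all 60 libraries with edgeR 4.0.16 (R 4.3.3, limma 3.58.1) after TMM scaling, which left 40 residual degrees of freedom. P-values were adjusted over 17129 genes. Names came from the Ensembl identifiers (56558 current, 438 from GENCODE 29, 3679 without one). The longest GENCODE 29 transcript gave a gene's length, available for 99.3% of tested genes.

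Tested on simulated data for wortmannin against vehicle (17038 genes), the fit recovered 86% of 100 genes changed by 1.5-fold and 99% of 100 changed by 2-fold. Libraries held 1.74204e+07 to 3.64796e+07 counts, and replicates correlated at 0.982 or above with 0 identical pairs. Same-numbered replicates deviated together (every pair above 0.1) in 1 of 37 comparisons, so no pairing was used.

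Alternatives were DESeq2 1.42.0, its size factors, no filter, only the libraries compared, a replicate block, the length slope as a covariate, and each library left out. Comparisons within a sample code and of dose effects were added after seeing the data. All members are named. From each pathway list the 2 genes with the smallest p under wortmannin, SR high and CR high are named. Genes overlapping a member or within 1 kb of its start are named too, with the 3 non-member genes most like each member. SR high and CR high tied for the most member calls, so both were used. Some genes that this rule names are not reported here. Members and lists were chosen with earlier results of these data known. SOD2, SOD2-OT1 and TBCE, which overlap members, were not analysed here.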

Additional observations from a re-analysis of the deposited data

Results flagged for a closer look

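The difference between high and low dose was itself unequal between extracts in 10 of the 15 pairs, by edgeR over all tested genes. SR against CR gave 7 members, led by MVD (1.4998 ± 0.15) and MVK (1.42 ± 0.10). SR also differed from ZRR for 7, from ZR for 7, from ZF for 6 and from PT for 4 members, with the SR dose effect the higher each time. CR differed from PT for 8 members, from ZRR for 6, from ZF for 6 and from ZR for 4, with the CR dose effect the lower each time. PT against CR was the pair in which PMVK was called (0.61), and PT high replicate 2 and CR low replicate 3, which both enter that difference with a positive sign, were among the 5 libraries with the highest PMVK levels. ZR against PT gave 1 member, MVD (-0.55), whose level in PT high rests on replicate 2. The doses of SR and CR differ from those of the other extracts, and the part of dose in these differences was not tested.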

How the results depend on the processing

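The member counts for SR high, CR high and ZF high against vehicle, for the medium doses together, and for high against low in ZR, SR, CR and ZF stayed within 1.5 times under the alternatives run, as did that for any difference. Other counts moved, and the cause was not tested. For ZRR high against vehicle (1) the count was 0 without the filter, 3 with only the libraries compared, 3 with the length slope and 0 to 1 with a library left out. For ZR high it was 1 with the length slope in place of 0. For PT high (3) it was 1 with DESeq2's size factors, 5 without the filter, 0 with only the libraries compared and 1 to 3 with a library left out. For the low doses together (4) it was 2 with only the libraries compared, 8 with the length slope and 2 to 4 with a library left out. For wortmannin (6) leaving out a library gave 3 to 6.

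Between doses, ZRR high against low (0) gave 1 without the filter and 5 with the length slope. PT high against low (0) gave 4 without the filter, 2 with DESeq2, 2 with the length slope and 0 to 1 with a library left out. Medium against low (0) gave 2 with DESeq2, 6 with the length slope and 0 to 3 with a library left out, the highest without ZR low replicate 3. The pairs at 500 µg/mL (3) gave 6 without the filter, 7 with DESeq2, 1 with only the libraries compared, 15 with the length slope and 1 to 7 with a library left out, the extremes without ZR high replicate 1 and ZF high replicate 2. PMVK in CR medium against vehicle turned from 0.09 to -0.16 with the length slope.

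With the replicate block, PT high against low gave 1 and medium against low gave 1. Of 55 called values the block lost 1 (HMGCS1, ZRR high against ZF high, adjusted p = 0.0505) and added 4 of 278. The replicate numbers are not shown to pair samples (lowest pair correlation -0.401). The length slope lost 4 and added 37, and 0 of the 55 reversed under any alternative. Calls over all tested genes were not counted under the alternatives. With 3 libraries a group, changes near the 1.5-fold simulated size or smaller can be missed.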
